A study of Mus musculus with 7 samples.

Results

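The complement genes C3, C4b, C1ra, C1s1, Cfb, Serping1, Cd55, Cd59a and Cd46 were followed across sorted mouse sarcoma cells of 2 tumour models. They were chosen by name, as components and regulators of the complement cascade, with earlier results of these data known. All 9 were found among the 35727 genes of the count table. Of these, 7 had enough counts for a test, among 13740 genes tested, and Cd59a and Cd46 did not. The first model, with 3 libraries, overexpresses Vgll3 (vestigial-like family member 3, a TEAD cofactor), and the second, with 4 libraries, overexpresses Ccne1 (cyclin E1), each from a retroviral vector. Both began as mesenchymal stem cells of female C57/Bl6 mice without p53 (p53KO), so p53 loss is shared by all libraries. Each model is a single line that had grown under the skin of wild-type mice before it was transplanted for the experiment, and cells positive for red fluorescent protein (RFP) were sorted from the tumours. The transduced gene and any other difference of its line cannot be told apart. The sources used here give neither the age of the mice nor the promoter of the vectors.

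Complement is a cascade of plasma proteins that tags cells and microbes and attracts leukocytes. The classical pathway starts when C1q binds a target and the proteases C1r and C1s cleave C4 and C2. The alternative pathway amplifies deposition of C3 with the protease factor B. Both converge on C3, whose fragments mark surfaces and bind receptors on myeloid cells, and then on C5 and the membrane attack complex. Host cells limit the cascade with soluble inhibitors such as the C1 inhibitor and with membrane proteins such as CD55, CD46 and CD59. The liver makes most plasma complement, and fibroblasts and macrophages make several components locally.

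Library totals were 26433220 to 47504434 counts in Vgll3-labelled libraries and 21725890 to 53610300 counts in Ccne1-labelled libraries. Levels are given as CPM, read counts scaled to TMM effective library size, with SD over 3 Vgll3-labelled and 4 Ccne1-labelled libraries. A count of 0 allows a level of up to 3 counts, which is 0.0577 to 0.136 CPM and covers counting error only. Vgll3 itself was 252 ± 34.6 CPM in Vgll3-labelled libraries and 50.7 ± 8.57 CPM in Ccne1-labelled libraries. Ccne1 was not raised under its own label, at 14.9 ± 2.16 CPM in Vgll3-labelled libraries and 12.7 ± 5.61 CPM in Ccne1-labelled libraries, so groups are called by their labels and every direction runs between labels. Mesenchymal markers were abundant, summing to 61136 to 71328 CPM in Vgll3-labelled libraries and 37097 to 42069.6 CPM in Ccne1-labelled libraries. Single markers differed in both directions, with 5 of 10 called higher and 4 lower in Vgll3-labelled libraries (25.1% and 26.8% of all genes tested). The 6 epithelial markers summed to 0.151 to 1.00 CPM in Vgll3-labelled libraries and 2.03 to 4.73 CPM in Ccne1-labelled libraries, of which Krt8, which passed the low-count filter only through the Ccne1-labelled libraries and was called lower, had 0.111 ± 0.0665 CPM in Vgll3-labelled libraries and 2.31 ± 1.08 CPM in Ccne1-labelled libraries, and Krt5 had no count in any library. Vgll3 replicate 3 stood apart within its label, with Pearson r across genes of 0.959 and 0.963 to the other 2 libraries, against 0.986 between those. The labels do not say whether libraries came from separate tumours or animals, so each p-value reflects variation among these samples only, part of which may be technical. In a sorted bulk sample, fewer cells that express a gene and less RNA per cell cannot be told apart.

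Among the 9 genes, C3, Serping1 and Cd55 fell in Vgll3-labelled libraries, at edgeR adjusted p-values of 0.0364, 0.0386 and 0.0183. C4b, Cfb, C1ra and C1s1 had lower means under the same label but did not pass the adjusted threshold of 0.05. None rose, and no tested member had a positive log2 fold change with edgeR, DESeq2 or limma-voom. Across all genes tested, 26.8% were called lower in Vgll3-labelled libraries, 25.1% higher and 51.9% in either direction. The libraries of the 2 labels did not overlap for 3 of the 7 genes, C3, C1ra and Cd55, where 55.7% of all genes tested did not overlap. With only 7 genes, 3 calls and 3 genes without overlap are not far from these shares, and nothing is read from the number of calls. As a description, the median log2 fold change, Vgll3-labelled over Ccne1-labelled, was -2.63 over the 7 genes and 0.01 over all genes tested. Cfb and Cd55 passed the low-count filter of 0.350 CPM only through the Ccne1-labelled libraries, where all 4 reached it, against 2 and 1 of the Vgll3-labelled libraries.

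**Figure D1:**
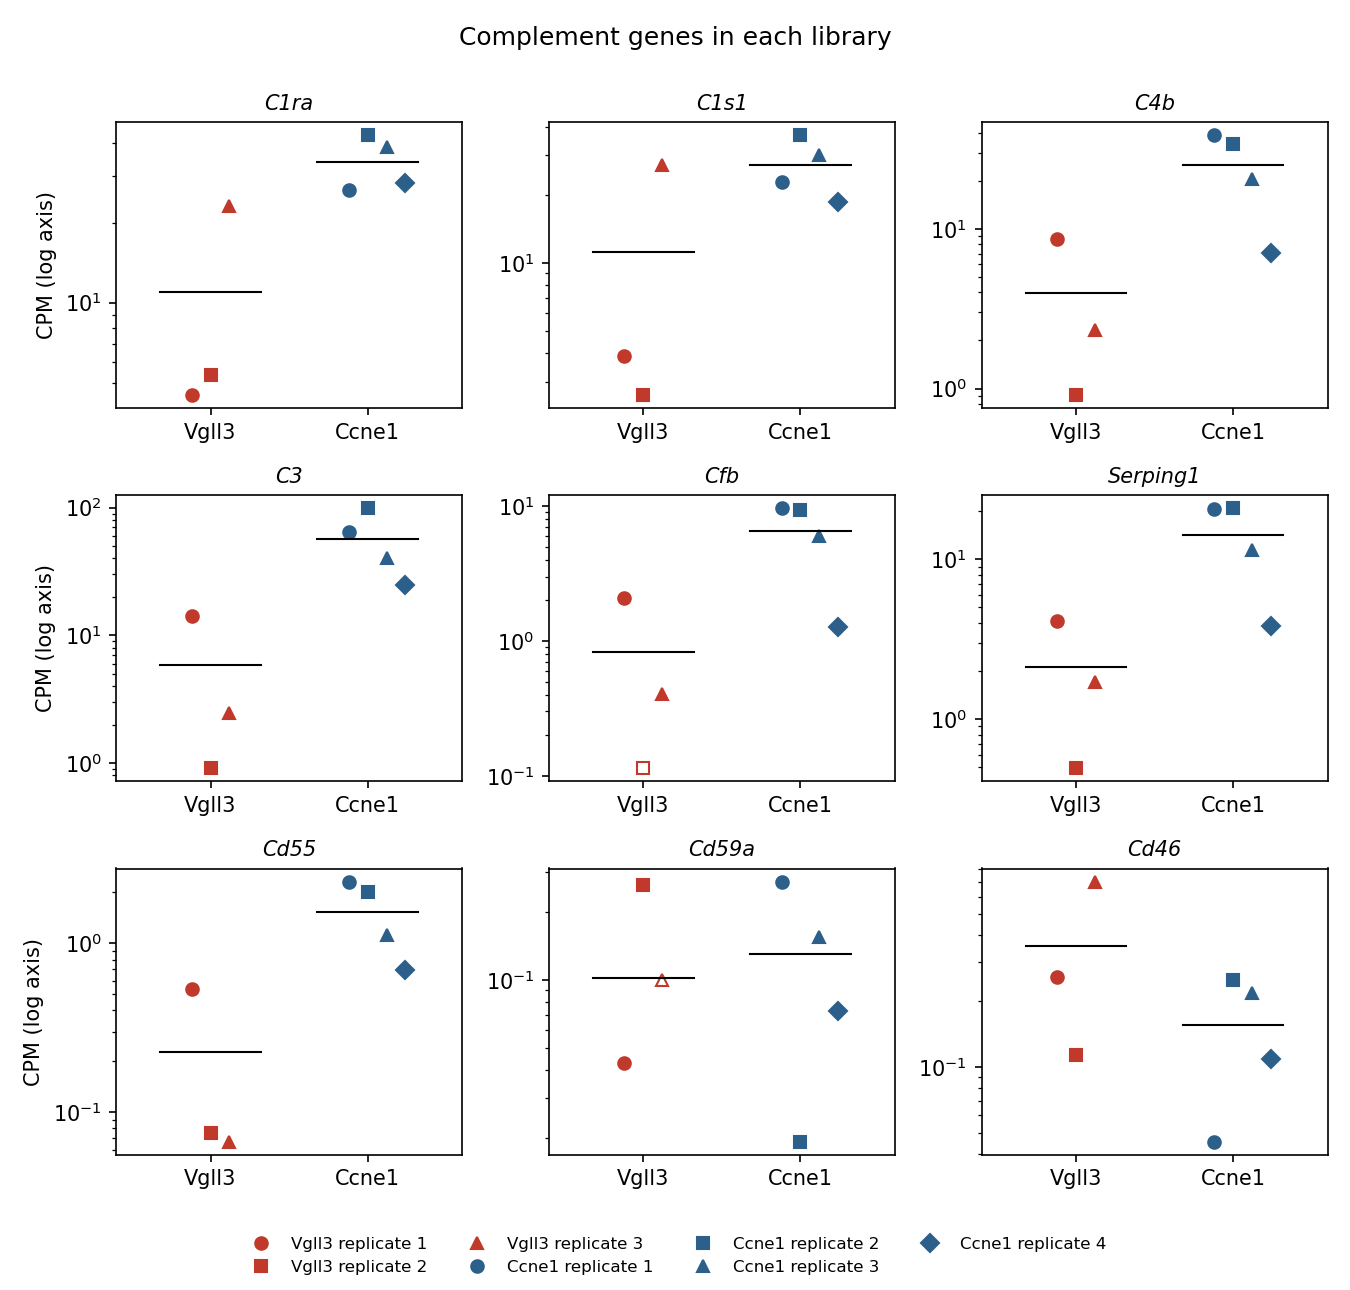
CPM of the 9 complement genes in each library, on log axes that differ between panels. Red symbols are the 3 Vgll3-labelled and blue symbols the 4 Ccne1-labelled libraries, marker shape gives the replicate, bars are group means, and open symbols are counts of 0 drawn at the level of 3 counts. For C3, C1ra and Cd55 all red symbols lie under all blue ones, while Cd59a and Cd46 stay under 1 CPM.

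C1ra encodes C1r, the first protease of the classical pathway, which C1q activates and which then cleaves C1s (ENSMUSG00000055172, mm10 chr6:124512405-124523443, plus strand, protein-coding). It was 4.48, 5.33 and 23.1 CPM in Vgll3-labelled replicates 1 to 3, against 26.6, 42.6, 38.6 and 28.1 CPM in Ccne1-labelled replicates 1 to 4. Vgll3 replicate 3 stood well above the other libraries of its label and just below the lowest Ccne1-labelled library. The log2 fold change was -1.64 (SE 0.63, 95% interval -3.18 to -0.10) and was not called (edgeR adjusted p = 0.0713). The two-sided exact permutation p of the difference in means was 0.0286, the smallest that 3 against 4 libraries allow. C1s1 encodes C1s, the protease that cleaves C4 and C2 (ENSMUSG00000038521, mm10 chr6:124530345-124542359, minus strand, protein-coding). It was 3.88, 2.61 and 27.0 CPM in Vgll3-labelled replicates 1 to 3, against 22.8, 36.7, 30.2 and 18.6 CPM in Ccne1-labelled replicates 1 to 4. Here Vgll3 replicate 3 lay inside the Ccne1-labelled range, and the groups overlapped (log2 fold change -1.29, SE 0.85, 95% interval -3.37 to 0.79, edgeR adjusted p = 0.251).

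Without Vgll3 replicate 3, C1ra and C1s1 were both called lower, with log2 fold changes of -2.80 and -3.02 and edgeR adjusted p-values of 7.93e-05 and 6.05e-04. C1ra was also called lower by DESeq2 (adjusted p = 0.0275) and limma-voom (0.00402), and C1s1 by limma-voom (adjusted p = 0.0165). The 6 endothelial markers also had their highest sum in that library, 225 CPM, against 32.3 and 60.4 CPM in Vgll3 replicates 1 and 2 and 46.1 to 126 CPM in Ccne1-labelled libraries. Most of that sum was Pecam1, the gene of CD31, with 184 CPM in Vgll3 replicate 3. Kdr was also highest in Vgll3 replicate 3, at 7.36 CPM. Cdh5, Vwf, Tek and Emcn were instead highest in Ccne1 replicate 1, with Cdh5 at 26.2 CPM there and 17.2 CPM in Vgll3 replicate 3. No endothelial marker was at 0 in any library, 0 of 6 were called by edgeR, DESeq2 or limma-voom, and 0 had an unadjusted edgeR p under 0.05. Their part in the C1ra and C1s1 levels was not tested. The close copies C1rb and C1s2 had at most 7 and 9 counts in any library, so a split of reads between copies touches few counts. An antisense gene overlaps C1s1, and counting by strand is not stated.

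C4b encodes complement C4, which C1s cleaves to tag surfaces and to form the classical C3 convertase (ENSMUSG00000073418, mm10 chr17:34728380-34743882, minus strand, protein-coding). It was 8.62, 0.907 and 2.34 CPM in Vgll3-labelled replicates 1 to 3, against 38.6, 34.2, 20.5 and 7.08 CPM in Ccne1-labelled replicates 1 to 4. The highest Vgll3-labelled library lay above the lowest Ccne1-labelled one, so the groups overlapped. C4b had a log2 fold change of -2.61 (SE 0.91, 95% interval -4.85 to -0.37) just outside the threshold (edgeR adjusted p = 0.0546). It was called without Vgll3 replicate 1 (-3.93, edgeR adjusted p = 0.0222), without Ccne1 replicate 4 (-2.92, edgeR adjusted p = 0.0348) and with the DESeq2 Wald test (-2.64, adjusted p = 0.00983). The near-identical gene C4a was not analysed here, so reads shared by the copies leave the C4b level uncertain.

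C3 is the central component on which all pathways converge (ENSMUSG00000024164, mm10 chr17:57203970-57228136, minus strand, protein-coding). It was 14.1, 0.907 and 2.48 CPM in Vgll3-labelled replicates 1 to 3, against 64.7, 98.7, 40.4 and 24.9 CPM in Ccne1-labelled replicates 1 to 4. Every Vgll3-labelled library was below every Ccne1-labelled one, but levels spread 15.6-fold within the Vgll3 label and 3.97-fold within the Ccne1 label. C3 had a log2 fold change of -3.23 (SE 0.99, 95% interval -5.66 to -0.79, edgeR adjusted p = 0.0364), a level 9.35-fold lower in Vgll3-labelled libraries, with an exact permutation p of 0.0571. Removing any one of 5 libraries, Vgll3 replicates 2 and 3 and Ccne1 replicates 1 to 3, took C3 over the threshold (edgeR adjusted p from 0.0591 to 0.0996), and the log2 fold change was -5.06 without Vgll3 replicate 1. Per kilobase of exon, the mean level of C3 was 1.13 CPM in Vgll3-labelled libraries and 11.1 CPM in Ccne1-labelled libraries. The matching values of C1ra were 3.68 and 11.4 CPM per kilobase, so C1ra lay above C3 under the Vgll3 label and beside it under the Ccne1 label.

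Cfb encodes factor B, which supplies the protease of the alternative C3 convertase (ENSMUSG00000090231, mm10 chr17:34856374-34862518, minus strand, protein-coding). It was 2.08, 0 and 0.402 CPM in Vgll3-labelled replicates 1 to 3, against 9.65, 9.45, 6.01 and 1.27 CPM in Ccne1-labelled replicates 1 to 4. The count of 0 in Vgll3 replicate 2 allows up to 0.113 CPM there, and the groups overlapped through Vgll3 replicate 1 and Ccne1 replicate 4. Of the 7 genes, Cfb had the widest interval (log2 fold change -2.90, SE 1.19, 95% interval -5.75 to -0.05) and was not called (edgeR adjusted p = 0.0818). It was called without Vgll3 replicate 1 (-4.96, edgeR adjusted p = 0.0283). Gm20547, an annotated gene that shares exons with Cfb and C2, had 0, 9 and 15 counts in Vgll3-labelled replicates 1 to 3, against 47, 0, 0 and 0 counts in Ccne1-labelled replicates 1 to 4. With these counts added to Cfb, the log2 fold change was -2.63 and was called (edgeR adjusted p = 0.0399), so the Cfb call turns on where these few reads are placed.

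Serping1 encodes the C1 inhibitor, a serpin that inactivates C1r, C1s and the lectin pathway proteases (ENSMUSG00000023224, mm10 chr2:84765387-84775444, minus strand, protein-coding). It was 4.14, 0.491 and 1.71 CPM in Vgll3-labelled replicates 1 to 3, against 20.6, 20.9, 11.4 and 3.81 CPM in Ccne1-labelled replicates 1 to 4. The groups overlapped, since Vgll3 replicate 1 exceeded Ccne1 replicate 4. Serping1 was 6.48-fold lower in Vgll3-labelled libraries (log2 fold change -2.70, SE 0.86, 95% interval -4.78 to -0.61, edgeR adjusted p = 0.0386), with an exact permutation p of 0.0857. Leaving out any of the same 5 libraries as for C3 removed the call (edgeR adjusted p 0.0651 to 0.114), and so did limma-voom (adjusted p = 0.0682).

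Cd55 encodes decay-accelerating factor, a membrane protein that takes C3 convertases apart (ENSMUSG00000026399, mm10 chr1:130439027-130462744, minus strand, protein-coding). It was 0.536, 0.0756 and 0.0669 CPM in Vgll3-labelled replicates 1 to 3, against 2.32, 2.00, 1.11 and 0.690 CPM in Ccne1-labelled replicates 1 to 4. The groups did not overlap, but these levels stand for only 25, 2 and 2 counts in Vgll3-labelled replicates 1 to 3, against 51, 104, 36 and 19 counts in Ccne1-labelled replicates 1 to 4. Cd55 had a log2 fold change of -2.63 (SE 0.77, 95% interval -4.37 to -0.89, edgeR adjusted p = 0.0183) and an exact permutation p of 0.0571. It was no longer called without Vgll3 replicate 2 (edgeR adjusted p = 0.0571), and the log2 fold change was -4.36 without Vgll3 replicate 1. Its copy Cd55b had no count in any library, and an antisense gene overlaps Cd55.

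Cd46, in mice a regulator known mainly from sperm (ENSMUSG00000016493, mm10 chr1:195036826-195092249, minus strand, protein-coding), had 12, 3 and 21 counts in Vgll3-labelled replicates 1 to 3, against 1, 13, 7 and 3 counts in Ccne1-labelled replicates 1 to 4. Cd59a, whose protein blocks the membrane attack complex (ENSMUSG00000032679, mm10 chr2:104095801-104115354, plus strand, protein-coding), had 2, 7 and 0 counts in Vgll3-labelled replicates 1 to 3, against 6, 1, 5 and 2 counts in Ccne1-labelled replicates 1 to 4. An antisense gene overlaps Cd46. Both Cd46 and Cd59a were too low for the edgeR test, and no difference was detectable at this depth (exact permutation p = 0.200 for Cd46 and 0.743 for Cd59a). The neighbouring copy Cd59b had 25, 10 and 16 counts in Vgll3-labelled replicates 1 to 3, against 5, 4, 3 and 1 counts in Ccne1-labelled replicates 1 to 4. Cd59b was called higher on these few counts and was tested only through the Vgll3-labelled libraries, since no Ccne1-labelled one reached the filter, with a log2 fold change of 2.21 (SE 0.61, edgeR adjusted p = 0.0143). Summed, the Cd59 pair was 0.586 ± 0.0538 CPM in Vgll3-labelled libraries and 0.238 ± 0.188 CPM in Ccne1-labelled libraries and was not called (edgeR adjusted p = 0.0897).

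Cr1l, the gene of Crry, a rodent membrane protein that limits C3 and C4 deposition on most cells, was far above Cd55, Cd46 and the Cd59 pair. It was 34.3, 35.7 and 26.1 CPM in Vgll3-labelled replicates 1 to 3, against 22.8, 27.8, 25.8 and 29.4 CPM in Ccne1-labelled replicates 1 to 4. The groups overlapped, and the log2 fold change of 0.28 (SE 0.13, 95% interval -0.01 to 0.56) was not called (edgeR adjusted p = 0.0975). Per kilobase of exon, Cr1l made up 82.9% to 88.1% of the summed level of Cr1l, Cd55, Cd55b, Cd46, Cd59a and Cd59b in Vgll3-labelled libraries, and 73.2% to 92.7% in Ccne1-labelled libraries. Thbd, the gene of thrombomodulin, was left out of that sum. The mean level of Thbd was 3.48 CPM per kilobase in Vgll3-labelled libraries and 26.3 in Ccne1-labelled libraries. The mean level of Cr1l was 3.09 CPM per kilobase in Vgll3-labelled libraries and 2.55 in Ccne1-labelled libraries, while that of Cd55 was 0.0466 CPM per kilobase in Vgll3-labelled libraries and 0.316 in Ccne1-labelled libraries.

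**Figure D2:**
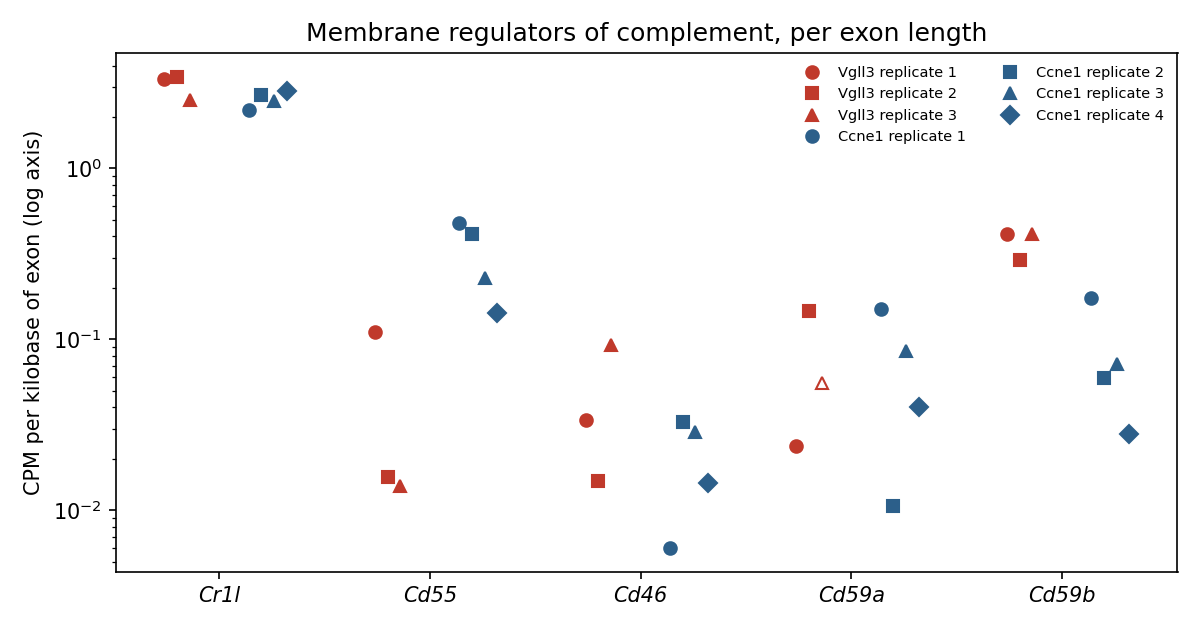
Levels of 5 membrane regulators in CPM per kilobase of annotated exon, on a log axis. Red symbols to the left are Vgll3-labelled and blue symbols to the right Ccne1-labelled libraries, marker shape gives the replicate, and the open symbol is a count of 0 drawn at the level of 3 counts. Cr1l lies above the other regulators shown in all 7 libraries, and Thbd is not shown. Cd55, lower, and Cd59b, higher in Vgll3-labelled libraries, separate the groups, while Cr1l does not.

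The 7 tested genes varied more between libraries of one label than most genes. Their within-group SD of log2 CPM was 0.85 to 1.79, at the 94.4th to 99.5th percentile, against a median of 0.17 over all genes tested. C3, C4b, Cfb and Serping1 shared an order of libraries, with Vgll3 replicate 1 highest and replicate 2 lowest, and with Ccne1 replicates 1 and 2 above 3 and 3 above 4. That order, noticed after the values were seen, held for 147 of the genes tested (1.07%). C4b and Serping1 were the nearest of all genes tested to each other, with a root mean square difference of 0.18 between their centred log2 CPM profiles over the 7 libraries, where the median gene differed from C4b by 1.84. In C1ra and C1s1, Vgll3 replicate 3 was instead the highest of its label, with replicate 2 above 1 for C1ra and replicate 1 above 2 for C1s1. These orders of the Vgll3-labelled libraries are common, at 23.4% and 16.3% of genes tested. C1ra and C1s1 differed from each other by 0.35 and from C3 by 1.75 and 1.76.

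**Figure D3:**
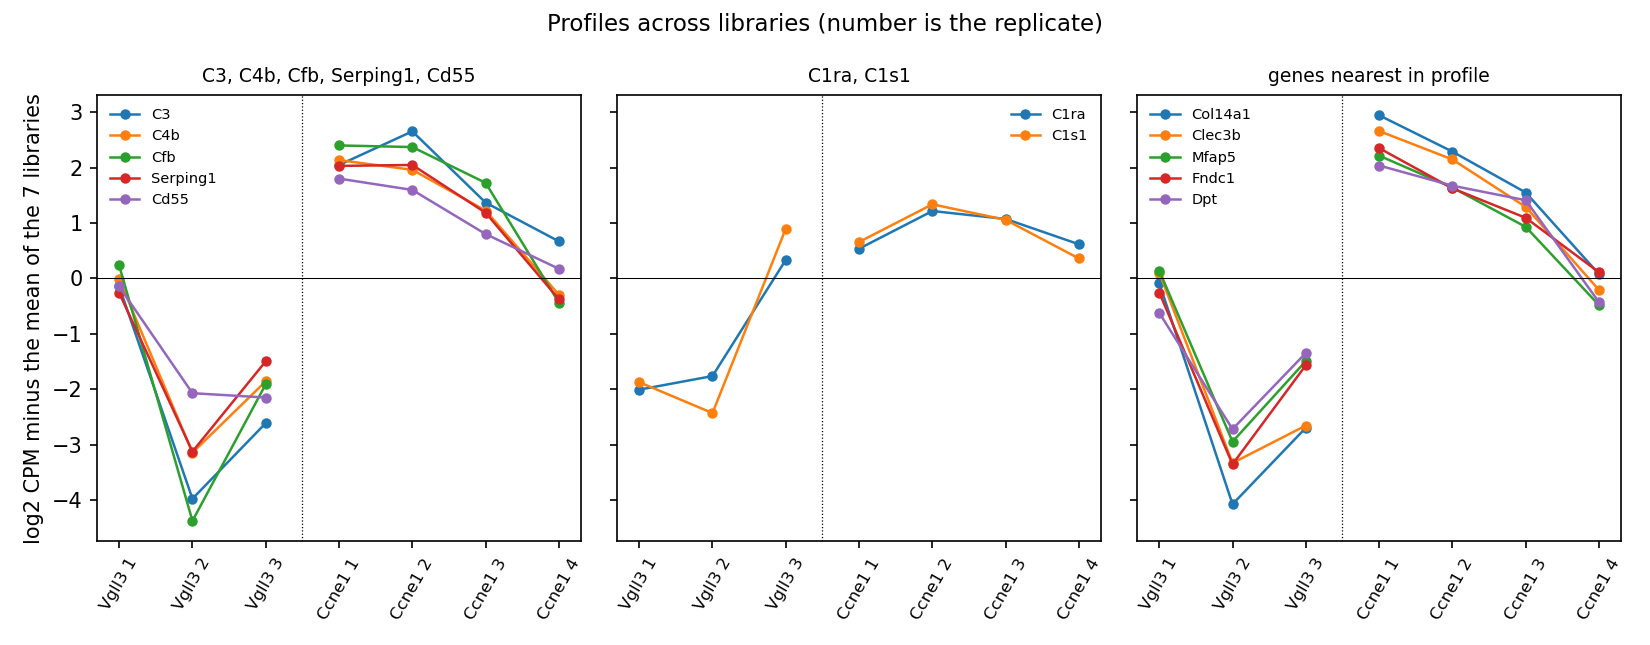
log2 CPM of each gene minus its mean over the 7 libraries, with Vgll3-labelled libraries to the left and Ccne1-labelled ones to the right of the dotted line. Each line joins the points of 1 gene within a label and shows no order of replicates. C3, C4b, Cfb, Serping1 and the genes nearest to them are lowest in Vgll3 replicate 2 and, within the Ccne1 label, in replicate 4, while C1ra and C1s1 are high in Vgll3 replicate 3.

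The genes nearest in profile to C3 were Col14a1, Clec3b and then Cfb, with differences of 0.44, 0.52 and 0.58, where the median gene differed by 2.29. Those nearest to Cfb were Col14a1 (0.45), Clec3b (0.54) and C4b (0.55). After each other, C4b was nearest to Mfap5 (0.25) and Fndc1 (0.27), and Serping1 to Mfap5 (0.26) and Dpt (0.27). Col14a1 encodes a collagen of connective tissue, and Dpt encodes dermatopontin, a matrix protein of the dermis. Col14a1 was 3.73, 0.151 and 0.535 CPM in Vgll3-labelled replicates 1 to 3, against 31.1, 19.7, 11.8 and 4.18 CPM in Ccne1-labelled replicates 1 to 4. Dpt was 3.04, 0.642 and 1.81 CPM in Vgll3-labelled replicates 1 to 3, against 19.7, 15.3, 12.7 and 3.49 CPM in Ccne1-labelled replicates 1 to 4. Both had the library order of the 4 complement genes and did not overlap between the labels, as for 55.7% of all genes tested. Both were picked for likeness over all 7 libraries, so a like order and a like difference between labels follow largely from that choice.

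Several of these neighbours are markers of connective tissue fibroblasts, a host cell type of skin and fascia, so 14 such markers were summed, a list drawn up after the profiles were seen. The sum was 260.0 to 495 CPM in Vgll3-labelled libraries and 850.4 to 1199.7 CPM in Ccne1-labelled libraries. Of the 14, 7 were called lower in Vgll3-labelled libraries, 7 were not called, and none was at 0 in any library. That is 50% called, where 51.9% of all genes tested were called and 26.8% called lower. Part of the list was found through these same profiles, so nothing is read from the count. Of the 7 called, 2 (Dpp4 and Col14a1) passed the low-count filter only through the Ccne1-labelled libraries. Clec3b, Mfap5 and Pi16, not called, also passed that filter only through the Ccne1-labelled libraries. Dpt, Clec3b, Mfap5 and Col14a1 had been found as nearest in profile to the complement genes, so a shared order follows largely from that choice. The 6 markers Dpp4, Dpt, Clec3b, Mfap5, Col14a1 and Lum had the same order of libraries as C3, C4b, Cfb and Serping1. The sum did not, being lowest in Ccne1 replicate 1 within its label, and its largest contributors included Dcn, which was 70.2, 35.3 and 158 CPM in Vgll3-labelled replicates 1 to 3, against 414, 698, 677 and 552 CPM in Ccne1-labelled replicates 1 to 4. Mesenchymal tumour cells can express many of these markers too, and their part in the complement levels was not tested.

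Macrophages also make C3 and C1q. The 13 macrophage and monocyte markers summed to 55.01 to 75.0 CPM in Vgll3-labelled libraries and 91.8 to 115 CPM in Ccne1-labelled libraries, with 1 called higher (Mertk) and 1 lower (Cd14) of 9 tested. Cd14 was 6.39 ± 1.85 CPM in Vgll3-labelled libraries and 59.4 ± 7.89 CPM in Ccne1-labelled libraries, and without it the sum was 50.2 to 67.9 CPM in Vgll3-labelled libraries and 39.9 to 51.3 CPM in Ccne1-labelled libraries. Without Cd14 the sums of the labels overlapped. Adgre1, which encodes F4/80, had 3, 1 and 2 counts in Vgll3-labelled replicates 1 to 3, against 5, 0, 4 and 0 counts in Ccne1-labelled replicates 1 to 4. The C1q genes C1qa, C1qb and C1qc lay between 0.300 and 0.736 CPM in Vgll3-labelled libraries and between 0.109 and 1.77 CPM in Ccne1-labelled libraries. Of these 3 genes, 0 were called by edgeR, DESeq2 or limma-voom, and 0 had an unadjusted edgeR p under 0.05. The part of macrophage RNA in the complement levels was not tested.

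Of 52 genes on the cascade lists outside the 9, 21 were tested, 5 rose, 6 fell and 10 were not called, with a median log2 fold change of -0.18. The share called, 52.4%, is close to the 51.9% of all genes tested, so nothing is read from these counts. Of the 5 that rose, 3 (Hc, C3ar1 and Cd59b) passed the low-count filter only through the Vgll3-labelled libraries, and of the 6 that fell, 1 (Cpn2) passed it only through the Ccne1-labelled libraries. A filter passed in this way favours a difference in that direction. Together with the 7, 28 genes were tested, of which 5 rose and 9 fell. Without Vgll3 replicate 2, only 5 of the tested complement genes fell.

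In the classical pathway, C2, the protease of the classical convertase (chr17:34862604-34898265), rose. It was 13.5, 12.1 and 14.5 CPM in Vgll3-labelled replicates 1 to 3, against 2.27, 4.196, 1.70 and 0.908 CPM in Ccne1-labelled replicates 1 to 4, with a log2 fold change of 2.53 (SE 0.43, edgeR adjusted p = 0.00204). C2 and Cfb lie on the same strand 85 bases apart and encode the matching proteases of the classical and alternative C3 convertases. The ratio of C2 to Cfb counts was 6.47 and 36.2 in Vgll3 replicates 1 and 3, with no Cfb count in replicate 2, against 0.236 to 0.714 in Ccne1-labelled libraries. C2 counts thus exceeded Cfb counts in every Vgll3-labelled library and in no Ccne1-labelled one. With the Gm20547 counts added, C2 was still called higher (log2 fold change 2.28, edgeR adjusted p = 0.00684).

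In the lectin pathway, 2 of 9 genes were tested and both fell. Of all genes tested, 51.9% were called and 26.8% called lower, so nothing is read from a count of 2. Masp1, a protease bound to lectins and collectins, was 132 ± 33.1 CPM in Vgll3-labelled libraries and 282 ± 50.3 CPM in Ccne1-labelled libraries (log2 fold change -1.10, edgeR adjusted p = 0.00249). Colec12, a scavenger receptor of the collectin family, was 48.7 ± 12.9 CPM in Vgll3-labelled libraries and 141 ± 0.710 CPM in Ccne1-labelled libraries (log2 fold change -1.53, edgeR adjusted p = 8.32e-05). Of the alternative pathway, Cfd (factor D) had no count in any library. Cfp (properdin, which stabilises the convertase) was 2.17 ± 0.939 CPM in Vgll3-labelled libraries and 2.19 ± 0.785 CPM in Ccne1-labelled libraries and was not called (edgeR adjusted p = 0.988, 95% interval of the log2 fold change -0.85 to 0.83).

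Of the 7 terminal genes only Hc, the mouse gene of C5, was tested. It was 6.58, 7.93 and 5.35 CPM in Vgll3-labelled replicates 1 to 3, against 0.273, 0.115, 0.155 and 0 CPM in Ccne1-labelled replicates 1 to 4. The log2 fold change of 5.63 (SE 0.55, edgeR adjusted p = 6.71e-05) was the largest of the 28 complement genes tested, but no Ccne1-labelled library reached the filter of 0.350 CPM, so Hc was tested only through the label where it is high. C6, C8a, C8b and C9 had at most 2 counts in any library, C7 at most 13 and C8g at most 9.

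Among soluble regulators, Clu and Cpn2 were called lower along with Serping1, Cpn2 reaching the filter in 2 of 3 Vgll3-labelled and in 4 of 4 Ccne1-labelled libraries. Clu, the gene of clusterin, which binds terminal complexes, was 75.0 ± 44.2 CPM in Vgll3-labelled libraries and 217 ± 28.8 CPM in Ccne1-labelled libraries (log2 fold change -1.53, edgeR adjusted p = 0.0185). It was no longer called without Ccne1 replicate 2 (edgeR adjusted p = 0.0505) or Vgll3 replicate 2 (0.0665). Cpn2, a subunit of carboxypeptidase N, which inactivates the C3a and C5a peptides, was 0.430 ± 0.189 CPM in Vgll3-labelled libraries and 1.96 ± 0.605 CPM in Ccne1-labelled libraries (log2 fold change -2.20, edgeR adjusted p = 0.00260).

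On the membrane, Thbd, the gene of thrombomodulin, which promotes inactivation of C3b, fell. It was 13.7, 14.96 and 10.2 CPM in Vgll3-labelled replicates 1 to 3, against 95.8, 114, 82.0 and 99.1 CPM in Ccne1-labelled replicates 1 to 4, with a log2 fold change of -2.92 (SE 0.16, edgeR adjusted p = 6.78e-06). Csmd3, a large membrane protein related to complement inhibitors, rose and was 16.5 ± 4.04 CPM in Vgll3-labelled libraries and 1.29 ± 0.558 CPM in Ccne1-labelled libraries (log2 fold change 3.65, edgeR adjusted p = 7.49e-05). Of the receptors, C3ar1, which binds the C3a peptide, was called higher, and it too was tested only through the Vgll3-labelled libraries. It was 1.84, 1.55 and 2.58 CPM in Vgll3-labelled replicates 1 to 3, against 0.273, 0.212, 0.310 and 0.254 CPM in Ccne1-labelled replicates 1 to 4 (log2 fold change 2.92, SE 0.36, edgeR adjusted p = 2.07e-04). C1qbp, a mostly mitochondrial protein that can bind C1q, was 81.5 ± 3.69 CPM in Vgll3-labelled libraries and 97.4 ± 5.35 CPM in Ccne1-labelled libraries (log2 fold change -0.26, edgeR adjusted p = 0.0139).

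**Figure D4:**
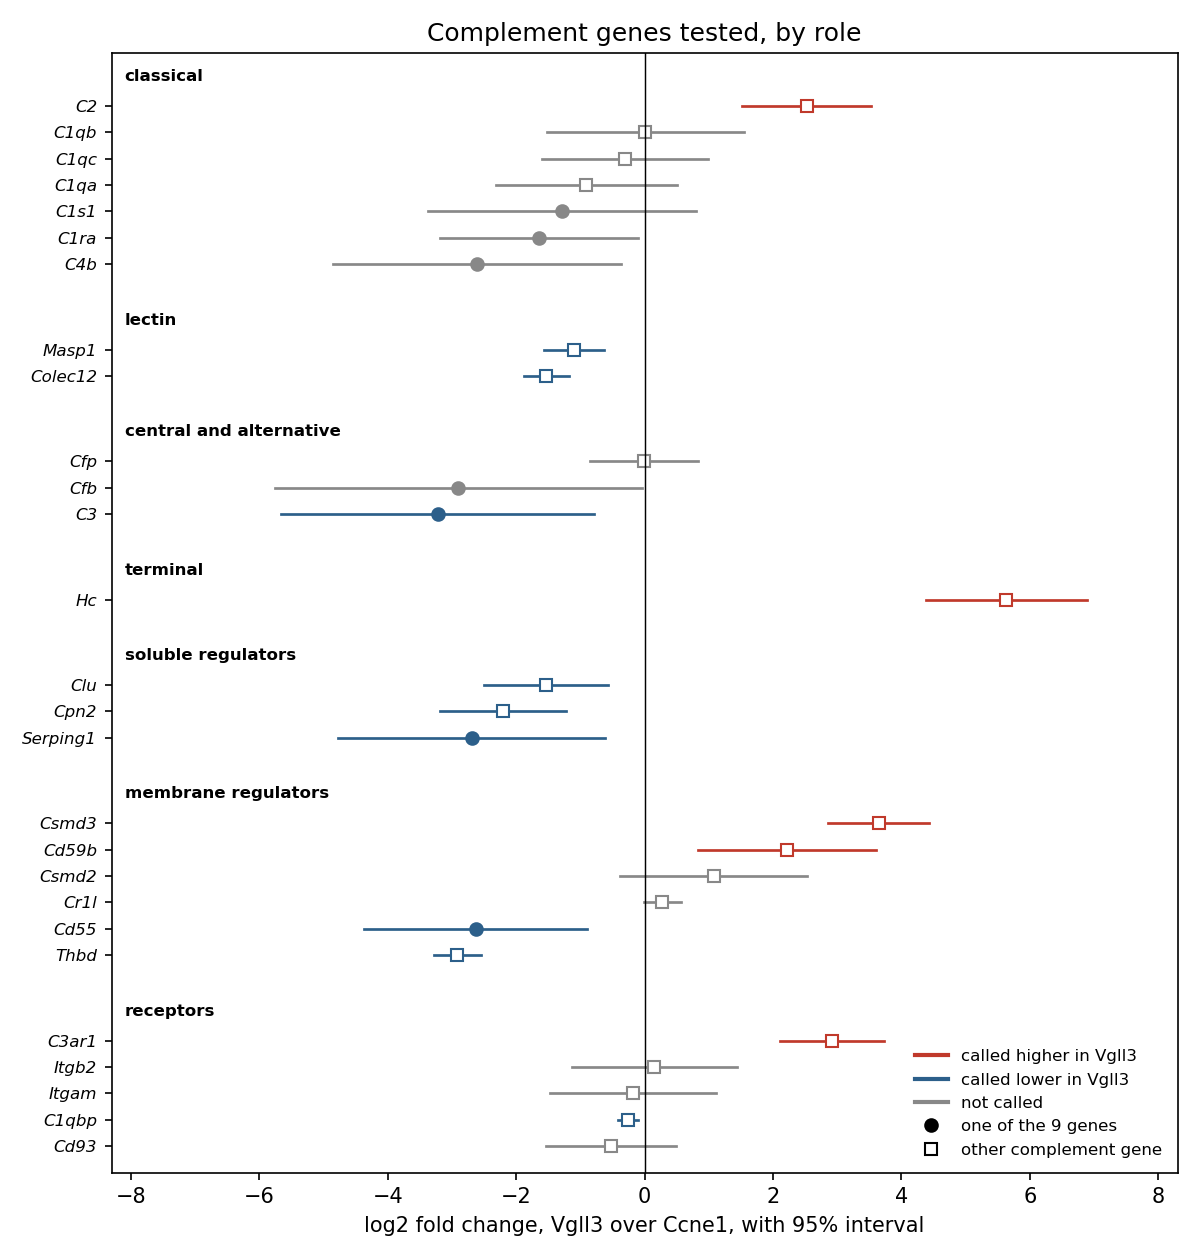
log2 fold change, Vgll3-labelled over Ccne1-labelled, of 27 of the 28 complement genes tested, grouped by role, with 95% intervals from edgeR. Filled circles are the 7 tested members of the 9 genes, open squares are other complement genes, and colour gives the call. Intervals of the 7 are wide, and C2, Hc, Csmd3, Cd59b and C3ar1 lie on the other side of 0.

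Transcription of several complement genes is known to respond to C/EBP, STAT and NF-kB factors. Of 13 factors tested, from these families and with Irf1 and Irf9 added, 4 rose and 4 fell (61.5% called, against 51.9% of all genes tested). Their median log2 fold change was -0.21, and Irf1 and Irf9 were not called. Cebpb, whose protein C/EBP-beta drives acute phase genes, was 146 ± 37.0 CPM in Vgll3-labelled libraries and 618 ± 116 CPM in Ccne1-labelled libraries (log2 fold change -2.09, edgeR adjusted p = 1.04e-04). Its relative Cebpd was 114, 51.2 and 47.9 CPM in Vgll3-labelled replicates 1 to 3, against 222, 354, 200.04 and 201 CPM in Ccne1-labelled replicates 1 to 4 (log2 fold change -1.78, edgeR adjusted p = 0.00881). Stat2, an interferon signal transducer, rose and was 39.5 ± 21.6 CPM in Vgll3-labelled libraries and 16.8 ± 3.94 CPM in Ccne1-labelled libraries (log2 fold change 1.23, edgeR adjusted p = 0.0273), a call that was lost without Ccne1 replicate 1, 3 or 4 (edgeR adjusted p 0.0547 to 0.0657). Of 16 genes tested on a list of cytokines and receptors that also holds Socs3, 2 rose and 2 fell (25.0% called, against the same 51.9%). Socs3 was among those that fell (log2 fold change -0.92, edgeR adjusted p = 0.0172). Il6st, the shared receptor chain of the IL-6 family, was 384 ± 88.2 CPM in Vgll3-labelled libraries and 129 ± 7.58 CPM in Ccne1-labelled libraries (log2 fold change 1.57, edgeR adjusted p = 5.33e-05). Lifr, its partner for leukaemia inhibitory factor, was 3.11 ± 2.35 CPM in Vgll3-labelled libraries and 37.1 ± 2.19 CPM in Ccne1-labelled libraries (log2 fold change -3.60, edgeR adjusted p = 7.16e-04). Il6 was 1.46 ± 1.72 CPM in Vgll3-labelled libraries and 0.503 ± 0.296 CPM in Ccne1-labelled libraries and was not called (edgeR adjusted p = 0.140).

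Since C/EBP genes differed between the labels, promoters were read for short C/EBP, STAT and NF-kB motifs. RefSeq promoters of GRCm38.p6 were matched for 6 of the 9 genes. The 250 bases before the RefSeq start are shown for C3 and Cd55, which were called, and for C1ra, 5′ to 3′ on the gene's strand. They lie at chr17:57228137-57228386 (C3, minus strand), chr1:130462745-130462994 (Cd55, minus strand) and chr6:124512371-124512620 (C1ra, plus strand). The RefSeq start equals the start of the gene as given above for C3 and Cd55. For C1ra it lies 216 bases inside the gene, so most of the C1ra window is within the GENCODE gene. Capitals mark matches to the C/EBP motif TTGNGNAA on either strand.
C3: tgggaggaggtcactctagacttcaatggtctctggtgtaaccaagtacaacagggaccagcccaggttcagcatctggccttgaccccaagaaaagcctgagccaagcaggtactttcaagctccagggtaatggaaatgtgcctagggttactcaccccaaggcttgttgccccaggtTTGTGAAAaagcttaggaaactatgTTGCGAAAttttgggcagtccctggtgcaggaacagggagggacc
Cd55: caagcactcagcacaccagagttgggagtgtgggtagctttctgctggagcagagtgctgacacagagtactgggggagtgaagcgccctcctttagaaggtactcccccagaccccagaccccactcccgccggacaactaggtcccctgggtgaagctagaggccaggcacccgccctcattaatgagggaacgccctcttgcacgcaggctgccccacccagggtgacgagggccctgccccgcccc
C1ra: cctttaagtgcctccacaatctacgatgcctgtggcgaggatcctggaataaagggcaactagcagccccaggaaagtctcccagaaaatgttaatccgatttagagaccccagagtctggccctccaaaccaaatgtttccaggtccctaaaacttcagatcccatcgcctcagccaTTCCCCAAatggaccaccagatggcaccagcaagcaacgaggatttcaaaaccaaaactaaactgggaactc

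The C3 window held 2 C/EBP matches, at bases -70 to -63 and -45 to -38 from the RefSeq start, and the C1ra window 1, at bases -72 to -65 from its RefSeq start, which is inside the GENCODE gene. The windows of Cd55, C1s1, Cd59a and Cd46 held none. The motif occurs in 11.7% of all 32851 promoter windows of the same length. The STAT motif TTCNNNGAA, found in 7.02% of windows, and a short NF-kB motif, found in 1.41%, were in none of the 6 windows, so no match overlapped one of another motif. These are matches of letters in a short window and say nothing of whether a factor binds.

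All 7 tested genes kept a negative log2 fold change in each of 95 values under 15 other settings, but the calls depended on single libraries. These settings refit the same libraries or part of them, so a kept sign is not separate support. Without Vgll3 replicate 1, 5 of the genes were called lower, C3, C4b, Cfb, Serping1 and Cd55, while C1ra and C1s1 had edgeR adjusted p-values of 0.146 and 0.469. Without Vgll3 replicate 3 the calls were C1ra, C1s1 and Cd55. Without Vgll3 replicate 2, edgeR called 0 of the 7, with 3 at an unadjusted p under 0.05. Without Ccne1 replicate 1, 2 or 3, Cd55 alone was called each time.

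**Figure D5:**
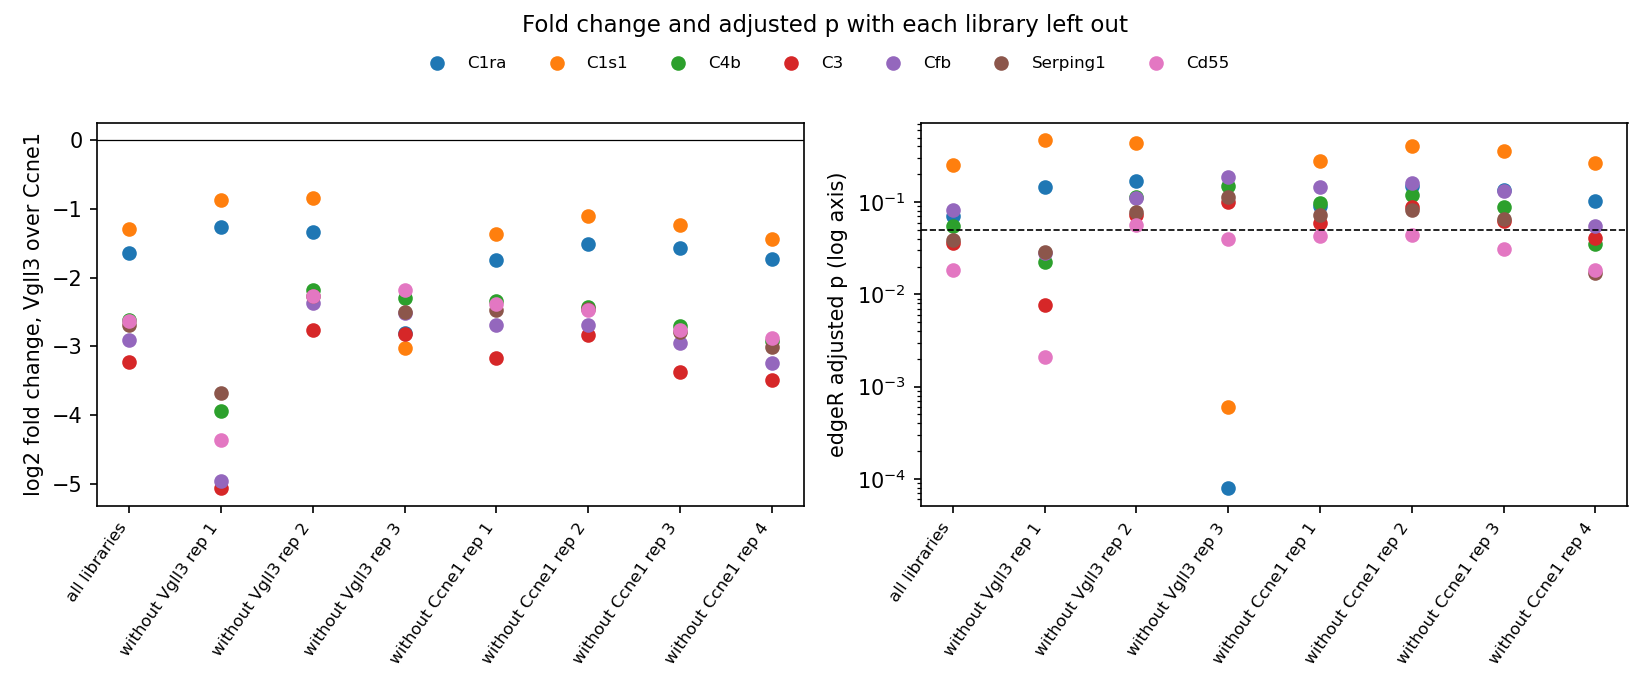
log2 fold change, Vgll3-labelled over Ccne1-labelled (left), and edgeR adjusted p on a log axis (right), of the 7 tested genes with all libraries and with each library left out. The dashed line is the threshold of 0.05. All fold changes stay under 0, C1ra and C1s1 pass the threshold only without Vgll3 replicate 3, and C4b and Cfb pass without Vgll3 replicate 1.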

How the data were processed

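PolyA RNA-seq libraries of RFP-sorted sarcoma cells were grouped and numbered by their titles. The authors deposited estimated counts per Ensembl gene. Salmon and mm10 are named, per the submitters' processing notes. The sources used here do not state a version, an annotation or a strand setting. All values were whole, and 0 needed rounding. Symbols, positions and exon lengths came from GENCODE M21 (GRCm38, equal to mm10), which matched 35422 of 35727 genes.

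The test, edgeR 4.0.16 under R 4.3.3, ran over the whole table with filterByExpr, TMM and a robust quasi-likelihood F test on the label alone, with Benjamini-Hochberg adjustment at 0.05. Fold changes put Vgll3 over Ccne1 labels, and the SE was derived from the F statistic, as the absolute log2 fold change over its square root. Permutation tests were exact and two-sided. log2 CPM for profiles used a prior count of 3. The fit was tested on simulated data. Alternatives were DESeq2 1.42.0 (Wald test and size factors), limma 3.58.1 (voom), other low-count filters, each library left out, a replicate block and summed copies; sums with Gm20547 were added after seeing the data.

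The 9 genes and all lists were chosen with earlier results of these data known. By rule, the other genes named are close copies of the 9; for each cascade list, the called gene that rose most, the one that fell most and the most abundant; over the inducers, 2 called genes in each direction; and the 3 genes nearest in profile to C3, C4b, Cfb and Serping1. Cr1l, the C1q genes, Cebpd, Il6, Socs3, Irf1, Irf9, Pecam1, Kdr, Cdh5, Vwf, Tek, Emcn, Dcn, Dpp4, Lum, Pi16, Adgre1, Cd14, Mertk, Cspg4, Rgs5, Notch3, Krt5, Krt8, Cfd, Gm20547 and the untested terminal genes were named after their values were seen. One tested gene of the lists is not reported here. Other marker lists had these mean sums: leukocytes 9.06 CPM in Vgll3-labelled and 13.9 CPM in Ccne1-labelled libraries; neutrophils 0.341 CPM in Vgll3-labelled and 0.119 CPM in Ccne1-labelled libraries; T and NK cells 0.316 CPM in Vgll3-labelled and 0.134 CPM in Ccne1-labelled libraries; B cells 2.47 CPM in Vgll3-labelled and 1.18 CPM in Ccne1-labelled libraries; pericytes and smooth muscle 158 CPM in Vgll3-labelled and 519 CPM in Ccne1-labelled libraries, and without Cspg4 18.1 CPM in Vgll3-labelled and 5.38 CPM in Ccne1-labelled libraries, where Rgs5 and Notch3 were called higher and Cspg4 lower; adipocytes 0.465 CPM in Vgll3-labelled and 1.37 CPM in Ccne1-labelled libraries; red blood cells 1.22 CPM in Vgll3-labelled and 7.79 CPM in Ccne1-labelled libraries; epithelial cells 0.578 CPM in Vgll3-labelled and 2.87 CPM in Ccne1-labelled libraries. Dissociation stress genes summed to 13039 CPM in Vgll3-labelled and 10947 CPM in Ccne1-labelled libraries.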

Additional observations from a re-analysis of the deposited data

Results flagged for a closer look

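Cfp was 3.37 CPM in Ccne1 replicate 1, far from the 1.75 to 1.89 CPM of the other 3 Ccne1-labelled libraries, with a gap of 0.915 of the group's range. Of the named genes, 28 were examined in this way, and chance alone marks about 1 in 20 such groups.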

How the results depend on the processing

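Of the 9 genes, 3 were called lower in the reported fit, 1 without a low-count filter (Cd55, with C3 at an edgeR adjusted p of 0.0883 and Serping1 at 0.101), 5 with the DESeq2 Wald test, and 0 to 5 when each library was left out. Of the tested complement genes, 9 were called lower, and 5 to 11 when each library was left out. No member was called higher under any of these settings. The log2 fold change of Cfp, -0.01, was 0.00793 with DESeq2 size factors and 0.0104 with a filter of CPM of at least 1 in at least 3 libraries, and -0.41 to 0.27 when each library was left out, with no call. The cause of these changes was not tested. Scaling moved the median of all genes by at most 0.02. Both labels number their replicates from 1, but same-numbered libraries did not deviate together (r across genes -0.15, -0.17 and -0.10), so the numbers are not treated as pairs. With the replicate block, 3 of the 9 genes were called lower, with C4b called (log2 fold change -3.35, edgeR adjusted p = 0.0373) and C3 not (-4.04, edgeR adjusted p = 0.0870), and 4841 genes were called in all, against 7133. The planned sum of C4b with C4a was not run, since C4a was not analysed here. Depth limits Cd59a, Cd59b and Cd46, with at most 25 counts in any library, and Cd55.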
